A study of Mus musculus with 41 samples.

Results

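The genes described here carry the symbols of mitochondrial ribosomal proteins. They were taken by symbol: each probe set that the platform annotation gives to exactly 1 gene whose symbol is Mrpl or Mrps, a number and at most 1 further letter. This found 76 genes on 156 probe sets, of 18193 genes with a probe set of their own, 47 with Mrpl and 29 with Mrps symbols. For the 42 genes with several probe sets, the one with the highest mean over all arrays was used. A further 2 symbols, Mrpl30 and Mrpl53, occurred only on probe sets shared with another gene and were left out. The rule uses symbols and mean signal only, but it was set with earlier results of these data known. They were measured on 41 Affymetrix arrays with 1 colour, from sorted cells of untreated C57BL/6 mice wild type for Pax5. These were 7 arrays each of common lymphoid progenitors (CLP), of Hardy fraction A and of fraction B, and 5 arrays each of fractions C, D, E and F. In Hardy's order of bone marrow stages, A stands for pre-pro-B, B for pro-B and C for late pro-B with large pre-B cells. D stands for small pre-B, E for immature and F for mature recirculating B cells. The sources used here give no sort gates, tissue, age or number of animals, so that the p-values reflect only the spread between arrays, which could be technical.

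The mitochondrial ribosome makes the few proteins that mitochondrial DNA encodes, all of them core parts of the respiratory chain and ATP synthase. Its protein genes lie in the nucleus, so their products must be imported and assembled on mitochondrial ribosomal RNA, in a particle that carries more protein and less RNA than its bacterial ancestor. Developing B cells alternate between division under cytokine and pre-B cell receptor signals and quiescence during light chain rearrangement.

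The arrays were of unequal quality, and some stood apart. Within a population, log2 signals of 2 arrays correlated at 0.75 to 0.96 in fraction A and at 0.93 to 0.98 in the CLP, and the median SD of a member over arrays was 0.65 in A, against 0.20 in D. The ratio of 3′ to 5′ signal of Gapdh, a measure of RNA integrity and of amplification, averaged 4.17 ± 0.519 in the CLP, 12.7 ± 9.92 in A and 7.52 ± 2.33 in B (SD, n = 7 each), and 4.95 ± 1.14 in C (n = 5). The same ratio of Actin went the other way. It averaged 1.27 ± 0.069 in the CLP, 1.10 ± 0.124 in A, 1.07 ± 0.064 in B and 1.23 ± 0.073 in C. The median SD of a member was 0.38 in B. The summed signal of 12 natural killer cell genes was 51749 to 94227 on the A arrays, with 11 or 12 genes at or above the array's median, and 2510 to 3864 on the CLP arrays. Pax5 and Ebf1, factors that define the B lineage, averaged 122 and 197 in A, whereas the CLP had 1230 and 3692, and Igll1, a pre-B cell receptor component, averaged 866 in A and 8405 in the CLP. Other B genes did not follow these 3. Of 17 B path markers 10 fell in A against the CLP and 2 rose, Cd22 and Ms4a1, while Vpreb1, another pre-B cell receptor component, read 509.3 to 53963.1 on the A arrays, against 12031.4 to 14192.6 on the CLP arrays. The summed signal of 14 myeloid genes was 4982 to 22513 in B, 63053 to 87137 in C and 19560 to 26458 in D. In C 12 to 14 of these genes were at or above the array's median. The sum was 13720 to 111071 in E, with a median of 25815. The part of these marker signals and of RNA quality in the results below was not tested. In sorted bulk RNA, fewer cells of a type and less RNA per cell cannot be told apart.

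Along the path, the members' level peaked in fraction B and was lowest in D, E and F, with a dip and a wide spread in A. The level of an array is taken as the median log2(signal + 32) of the 76 members. CLP arrays averaged 10.16 ± 0.11, A arrays 9.93 ± 0.27 and B arrays 10.39 ± 0.12 (SD, n = 7 each). C arrays averaged 10.20 ± 0.31, D arrays 9.77 ± 0.05, E arrays 9.72 ± 0.08 and F arrays 9.62 ± 0.12 (SD, n = 5 each). The highest D array, at 9.83, lay below the lowest C array, at 9.92, and every E and F array lay below every CLP, B and C array. Fraction C was split. Arrays 1 and 2 reached 10.47 and 10.59, the level of B, while arrays 3, 4 and 5 were at 9.97, 10.05 and 9.92. The same 2 arrays were also the highest of C in the median level of 25 proliferation genes, at 12.38 and 12.40 against 11.76, 11.19 and 11.52. Each array's signals had been scaled to 1 trimmed mean, which left the medians of all genes unequal, so the members' level minus the median of all tested genes is the other view. On it the CLP had a mean of 0.98, A of 1.11, B of 1.55, C of 1.06, D of 0.88, E of 0.84 and F of 0.75. On this scale the B arrays, none below 1.38, lay above every CLP, D, E and F array, and the D arrays, at 0.83 to 0.95, overlapped the C arrays, at 0.75 to 1.46.

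**Figure D1:**
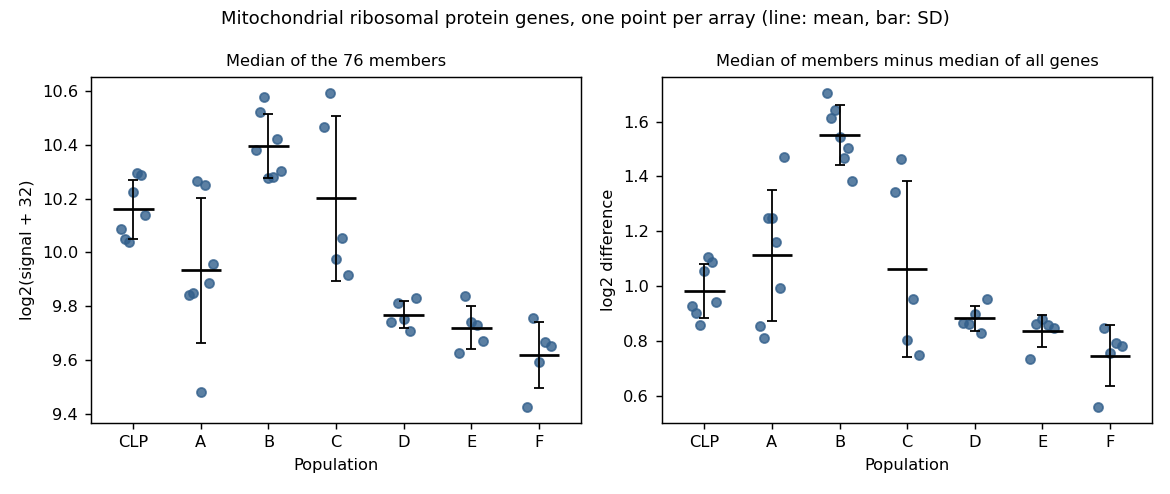
Each point is 1 array, and the left panel gives the median log2(signal + 32) of the 76 members, the right panel that value minus the median of all tested genes. Lines are means and bars are SDs over 7 (CLP, A, B) or 5 arrays (C, D, E, F). The D arrays sit between 9.71 and 9.83 in the left panel, below every C array, and C arrays 1 and 2 lie above 10.4.

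The members differed in where they peaked, but rarely peaked late. Fraction B had the highest mean of 32 members, C of 18, A of 13, the CLP of 9, D and E of 2 each and F of 0. For comparison, B had the highest mean of 12.5% and F of 13.9% of all genes tested. Fraction F had the lowest mean of 25 members, E of 16, D and A of 13 each. In 34 members the means of D, E and F were all below those of the CLP, A, B and C, and in 0 were all above. Among all genes tested these 2 patterns had shares of 15.3% each. All 76 members passed the filter on low signals, and the moderated F-test of limma called 65 of them as differing over the populations at a Benjamini-Hochberg adjusted p under 0.05, where 73.3% of all 11947 genes tested were called. The 11 that did not pass were Mrpl27, Mrpl38, Mrpl43, Mrpl50, Mrpl51, Mrpl54, Mrpl57, Mrps17, Mrps18c, Mrps23 and Mrps31, named because they complete the account.

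**Figure D2:**
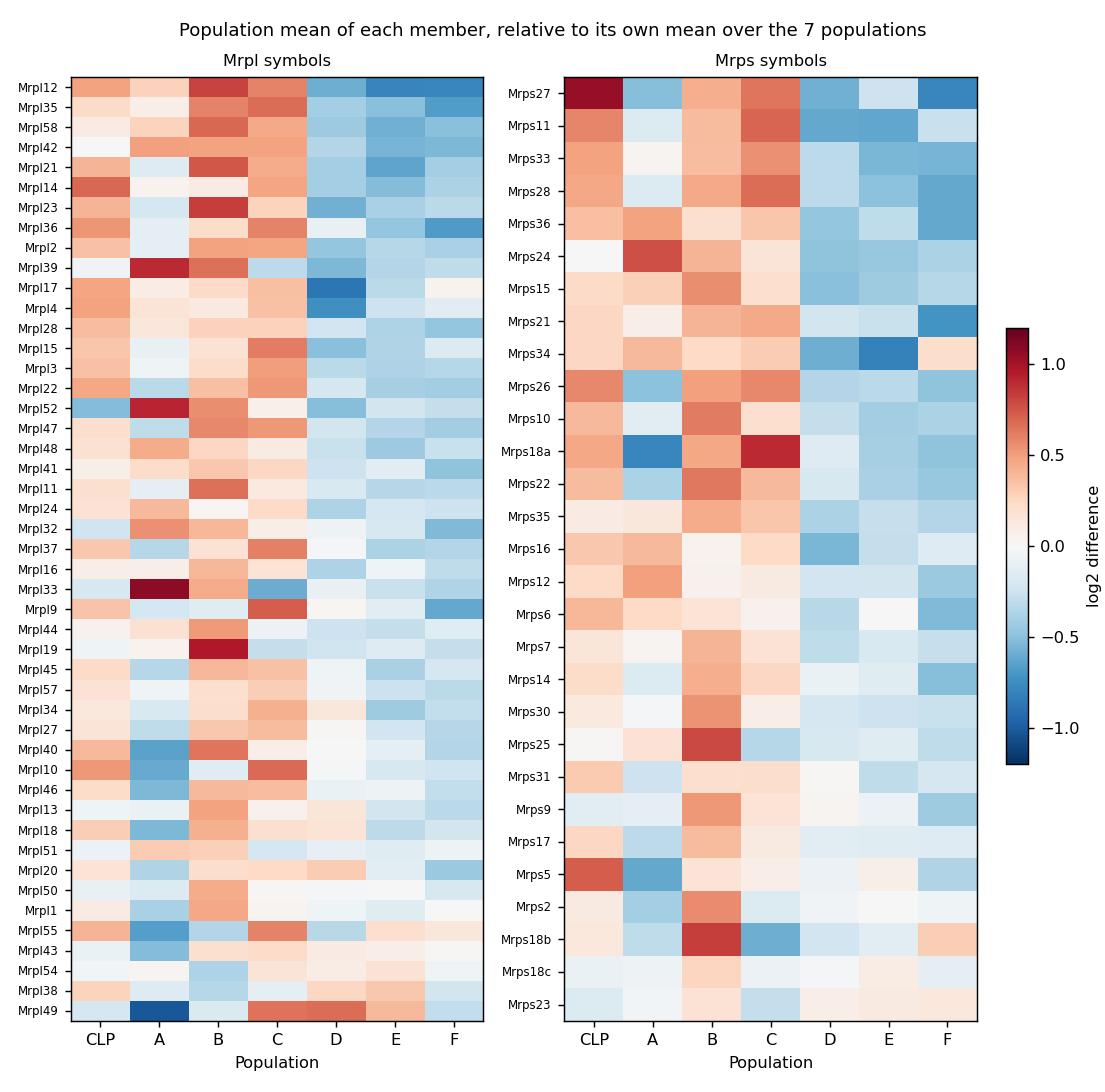
Colour gives each member's population mean minus its own mean over the 7 populations, in log2 units, with Mrpl symbols in the left panel and Mrps symbols in the right and members ordered by how far early exceeds late. In 34 of the 76 rows the means of D, E and F are all below those of the CLP, A, B and C.

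Promoters of 4 members are shown because they span the range of behaviour. Mrps27 and Mrpl12 had the furthest falls in F against the CLP. Mrpl17 had its lowest mean in D, and Mrps18c had the smallest range of population means. Each promoter is 300 bases, 250 before to 50 after the transcription start, 5′ to 3′ on the gene's strand, from RefSeq on build GRCm38.p6. Capitals mark letters that match 1 of 4 motifs sought on both strands: the Nrf1 motif, whose letters are the capitals at the one match in Mrpl12 and at the later match in Mrpl17, CCGGAAG of ETS factors including GABP, AAGATGG of YY1, and the E-box CACGTG that Myc and Max bind. Nrf1, GABP, YY1 and Myc are known regulators of nuclear genes for mitochondrial proteins.
Mrps27, chr13:99344536-99344835, plus strand: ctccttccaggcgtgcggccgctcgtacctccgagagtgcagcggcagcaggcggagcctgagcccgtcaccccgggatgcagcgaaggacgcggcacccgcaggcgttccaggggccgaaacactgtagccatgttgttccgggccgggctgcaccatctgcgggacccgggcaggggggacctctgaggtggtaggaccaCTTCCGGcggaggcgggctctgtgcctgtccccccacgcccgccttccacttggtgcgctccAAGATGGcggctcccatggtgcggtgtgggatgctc
Mrpl12, chr11:120484387-120484686, plus strand: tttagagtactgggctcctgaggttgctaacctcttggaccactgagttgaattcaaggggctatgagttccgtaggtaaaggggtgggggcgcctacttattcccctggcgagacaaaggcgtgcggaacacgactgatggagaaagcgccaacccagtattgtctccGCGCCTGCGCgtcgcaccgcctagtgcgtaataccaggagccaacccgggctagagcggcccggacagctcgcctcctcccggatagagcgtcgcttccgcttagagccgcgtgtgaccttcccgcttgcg
Mrpl17, chr7:105811038-105811337, minus strand: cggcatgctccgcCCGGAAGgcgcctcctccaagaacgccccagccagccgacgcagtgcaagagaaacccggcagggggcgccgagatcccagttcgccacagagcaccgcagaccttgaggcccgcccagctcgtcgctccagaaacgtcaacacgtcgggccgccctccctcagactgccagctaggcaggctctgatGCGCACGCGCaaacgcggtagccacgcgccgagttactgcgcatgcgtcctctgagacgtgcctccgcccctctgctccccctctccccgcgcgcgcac
Mrps18c, chr5:100798509-100798808, plus strand: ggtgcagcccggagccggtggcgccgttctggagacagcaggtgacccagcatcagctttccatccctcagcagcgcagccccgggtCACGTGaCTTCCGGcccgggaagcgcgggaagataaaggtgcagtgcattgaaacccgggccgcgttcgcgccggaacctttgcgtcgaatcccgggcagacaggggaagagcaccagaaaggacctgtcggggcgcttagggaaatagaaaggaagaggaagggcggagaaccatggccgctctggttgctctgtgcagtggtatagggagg
Counting from the start site, Mrps27 had the ETS letters with their first base at -48 and the YY1 letters at 15, Mrpl12 the Nrf1 letters at -81, Mrpl17 the ETS letters at -237 and the Nrf1 letters at -49, and Mrps18c the E-box at -163 and the ETS letters at -156. Of the 76 members 67 had a promoter in the table. The ETS letters were in 24 of these (35.8%), against 18.2% of 9693 promoters of tested genes and 9.12% of all 27025 promoters of that length. The YY1 letters were in 13 (19.4%), against 7.39% and 6.48%. The Nrf1 letters were in 12 (17.9%), against 10.5% and 4.78%. The E-box was in 5 (7.46%), against 10.2% and 7.24%. None of the 4 motifs occurred in 25 member promoters. These matches describe letters only.

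Many members were lower in fraction F, the mature cells, than in the CLP. Of 76 members 36 fell, 0 rose and 40 were not called, where 26.6% of all genes tested fell and 15.2% rose, and 71 of 76 differences were below 0. The median difference was -0.51 on the log2 scale, against -0.15 for all genes. In 28 members all F arrays lay below all CLP arrays, where 22.6% of all genes did so, and in 0 above, where 13.7% did so. Called falls occurred in both subunits and in proteins of either ancestry, though not in equal shares. It was called for 8 of 15 small subunit proteins with a bacterial relative and 4 of 10 found only in mitochondria. In the large subunit it was called for 16 of 29 with a bacterial relative and 6 of 20 without, the latter near the share of all genes. Mrps28 and Mrps36, which were not assigned to a class, also fell. A fit of F and CLP alone, and fits without A arrays 4, 6 and 7 or B arrays 1 and 4, kept all 36 calls. Other probe sets of the same genes gave less. Of 66 tested, in 34 genes, 6 were called the same way as the chosen one and 1, of Mrpl3, the opposite way. When a single array was left out, 24 to 41 members fell. Genes of proliferation moved with the members here, 20 of 25 falling and 0 rising, and the summed signal of the 14 myeloid genes was 9482 to 20963 in F, against 18574 to 61758 in the CLP. Their part in the members' fall was not tested.

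From C to D, the step to small pre-B cells in Hardy's order, members fell on the authors' scaling. Fraction D had 24 members that fell and 0 that rose against C, with 13.6% of all genes falling and 7.46% rising. The median difference was -0.50, against -0.10 for all genes, and 24 members had all D arrays below all C arrays, as did 17.5% of all genes, with 0 above (11.3% of all genes). Among the called were 13 of 29 large subunit proteins with a bacterial relative, 3 of 20 without, 4 of 15 small subunit proteins with a bacterial relative and 3 of 10 without, with Mrps28 the last of the 24. Of 6 proteins of the central protuberance 0 were called. This count rested on C arrays 1 and 2. Without them 6 members fell (Mrpl2, Mrpl4, Mrpl9, Mrpl17, Mrps27 and Mrps33), with 8.26% of all genes falling, and the median was -0.31. In C against B 13 members then fell, with 8.62% of all genes falling. With arrays centred on their medians 21 fell in D against C (12.3% of all genes) and 29 in C against B (19.3% of all genes). Which of these steps held more falls of members thus depended on the scaling and on C arrays 1 and 2. The share of all genes that fell shifted with the scaling too. Markers of other cells moved at the same step. Of 12 natural killer cell genes 11 fell in D against C, with summed signals of 922 to 1401 in D against 2632 to 10055 in C, as did 10 of 14 myeloid and 4 of 9 plasmacytoid dendritic cell genes. Their part in the members' fall was not tested. Of 25 proliferation genes 6, including Kif11 and Bub1 of the mitotic spindle, rose in D and 0 fell.

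Later steps brought no called change. Between E and D and between F and E, 0 members were called in either direction by limma, with 3.89% of all genes higher and 4.21% lower in E against D and 0.259% higher and 0.209% lower in F against E, and the median differences were -0.05 and -0.06. At an unadjusted p under 0.05 limma had 1 member higher and 1 lower in E against D, and 1 higher and 5 lower in F against E. Fits of only the 2 populations called 4 higher and 4 lower in E, where 12.8% of all genes were higher and 12.3% lower. They called 1 lower in F (2.4% of all genes). With array weights 4 were higher and 3 lower in E (13.2% of all genes each way) and 2 lower in F (2.17%). All E arrays lay above all D arrays in 2 members (9.35% of all genes) and below in 3 (9.15%), and all F arrays above all E arrays in 1 (3.1%) and below in 2 (3.21%). Mrpl17 was the member above at both steps, with Mrpl4 the other in E, and Mrpl49 was below at both, these being named after their values were seen. Over the step from D to E, 19 of 25 proliferation genes fell and 0 rose.

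In fraction A 20 members fell and 6 rose against the CLP, where 25.5% of all genes fell and 11.5% rose, with a median of -0.36 against -0.22. The share of members that fell was thus near that of all genes, and relative to the median of all genes the members' level was higher in A (1.11) than in the CLP (0.98). Mrps27 was below (5.41% of all genes) and Mrpl33 and Mrpl52 above the CLP (3.98%) without overlap. In B 26 members rose and 1 fell against A, where 16.8% of all genes rose and 14.5% fell, with a median of 0.43 against 0.02. In 2 members, Mrpl11 and Mrps9, all B arrays lay above all A arrays (2.11% of all genes) and in 0 below (3%). Both rest on the A arrays. Without A arrays 4, 6 and 7, 11 of the 26 calls against the CLP and 14 of the 27 calls of B against A were kept. In fits of only the 2 populations 9 and 5 were kept. Setting B against the CLP passes over A: 12 members rose and 2 fell, where 8.77% of all genes rose and 18.9% fell, and the median was 0.17, against -0.20 for all genes. All B arrays lay above all CLP arrays in 4 members (Mrpl11, Mrpl19, Mrps9 and Mrps25, 5.02% of all genes) and below in 1 (Mrpl10, 8.26%). Mrps9 is named for its place in these counts. Without CLP array 2, or without CLP array 7, the count that rose was 7. The 3 comparisons share arrays. Of 25 proliferation genes 18 rose and 0 fell in B against A, and 12 rose and 0 fell in B against the CLP. The 3′ to 5′ ratio of Gapdh was also higher in B than in the CLP, while that of Actin was lower. The part of proliferation genes and of these ratios was not tested. Scaling moved all of these comparisons, since centring each array on its median shifted the median of all genes by over 0.1. It then stood at 0.01 for A against the CLP, 0.21 for B against A and 0.22 for B against the CLP. So scaled, 9 members rose and 8 fell in A against the CLP, so that the surplus of falls was gone, 43 rose and 0 fell in B against A, and 35 rose and 0 fell in B against the CLP. Of all genes tested, in the same order, 17.3%, 24.6% and 21.9% then rose and 14.9%, 9.52% and 7.29% fell. Among the calls over all genes, 53.8%, 72.1% and 75.03% were then higher, against 31.1%, 53.8% and 31.7% as scaled by the authors.

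From B to C the members as a group did not move one way. In C 8 fell and 3 rose against B, where 8.8% of all genes fell and 14.2% rose, and the median was -0.05, against 0.19 for all genes. All C arrays lay below all B arrays in 7 members (5.47% of all genes) and above in 2 (7.6%). With arrays centred on their medians 29 fell and 0 rose, where 19.3% of all genes fell and 4.55% rose. The median of all genes was then -0.23, and 19.1% of the calls over all genes were higher, against 61.7% as scaled by the authors. Of 25 proliferation genes 15 fell and 0 rose in C, and 10 of 14 myeloid genes and 9 of 12 natural killer cell genes rose, and their part was not tested. Without C array 4, or without C array 5, 5 fell, without B array 2 5 rose, and without C arrays 1 and 2 13 fell (8.62% of all genes). The median was above 0 at 0.01 without C array 5.

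**Figure D3:**
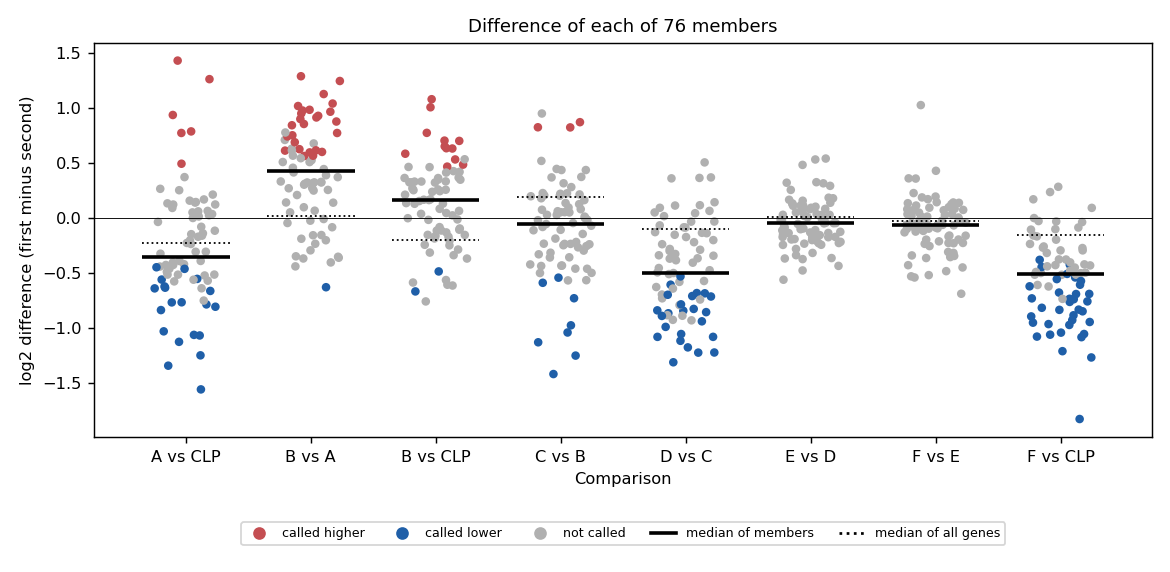
Each point is 1 of 76 members, and its height is the log2 difference of the first named population minus the second. Solid lines are the medians of the members and dotted lines those of all genes, with red and blue for calls at an adjusted p under 0.05. Called points in D vs C and F vs CLP are all below 0, and E vs D and F vs E have none.

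Among the small subunit proteins the widest range belonged to Mrps27, a protein of the pentatricopeptide repeat family that binds mitochondrial RNA and that human cells need for mitochondrial translation. Its signal was 136.0, 186.8, 64.6, 118.0 and 197.1 on the F arrays, against 448.9 at the lowest, 524.6 at the median and 780.7 at the highest of the CLP. All F arrays were below all CLP arrays, and the log2 difference was -1.83 ± 0.27 (SE, limma, adjusted p = 4.88e-07). On the D arrays it was 149.6, 174.3, 150.0, 137.7 and 180.7, against 409.6, 537.8, 338.3, 373.1 and 421.7 on the C arrays. These groups were again apart, with a difference of -1.22 ± 0.29 (adjusted p = 0.00186). It was low in A as well, at 63.4 to 326.3 with a median of 209.2, and differed from the CLP by -1.56 ± 0.25 (adjusted p = 3.21e-06). In B it was at 240.3 to 562.9 with a median of 340.0, and it rose against A by 0.95 ± 0.25 (adjusted p = 0.00258). The calls in A, D and F stood in all 56 alternative settings, which include leaving out each array in turn.

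Mrps11, of the platform, and Mrps5, near the entry of the messenger, have bacterial relatives. Mrps11 averaged 182 ± 56.7 in D and 507 ± 172 in C (SD, n = 5 each), and its D values of 140.0 to 278.7 lay below the C values of 355.4 to 709.5. The difference of -1.31 ± 0.36 was the furthest fall of a member from C to D (adjusted p = 0.00743), but was not called without C arrays 1 and 2 or with the mean of its probe sets. Mrps5 averaged 409 ± 271 in A and 865 ± 187 in the CLP (SD, n = 7 each), with single A arrays at 32.8 and 774.4, so that the groups overlapped at a difference of -1.34 ± 0.34 (adjusted p = 0.002). Its mean stayed between 418 and 605 from B to F, below that of the CLP. In F it fell against the CLP by 1.08 on the log2 scale (adjusted p = 0.0182), with overlap, a call that ended without F array 1 and in the fit with replicate numbers as a block.

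Mrps25 and Mrps23 have no bacterial relative. Mrps25 peaked in B. It read 1225.0 to 1715.9 in B, above all CLP arrays at 679.0 to 1061.8, with a difference of 0.78 ± 0.20 (adjusted p = 0.00245), and in C it was 912.3, 1055.5, 450.1, 504.3 and 583.6, below all B arrays, with a difference of -1.13 ± 0.22 (adjusted p = 0.000119). Another of its probe sets was called in the opposite direction from B to C, and with the mean over its probe sets neither call held. Mrps23 had means of 528 to 755 in the 7 populations and was not called by the F-test (adjusted p = 0.655). It had the second smallest range of population means, 0.46 on the log2 scale.

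The 3 Mrps18 genes encode related proteins at different places: Mrps18c and Mrps18b belong to the small subunit and Mrps18a to the large. Only Mrps18c was counted above as having a bacterial relative, because the standard naming of subunits gives the bacterial name to it alone. Mrps18c had the smallest range of the 76 members. Its population means lay between 5624 ± 585 in F and 7229 ± 564 in B, a range of 0.36 on the log2 scale, and the F-test did not call it (adjusted p = 0.179). Mrps18b peaked in B. It read 2147.2 to 3215.6 there, against 364.2 to 2533.8 in A, with overlap at a difference of 1.13 ± 0.25 (adjusted p = 0.000398). In C it was 1473.9, 1567.4, 698.5, 508.1 and 975.2, all below the lowest B array, a difference of -1.42 ± 0.27 and the furthest fall of a member at this step (adjusted p = 0.00011). It then averaged 1256 ± 215 in D, 1338 ± 178 in E and 1821 ± 296 in F. Mrps18a was 441.3, 431.8, 388.4, 332.8 and 416.2 in D, against 1279.6, 1330.1, 720.9, 569.8 and 689.8 in C, where it peaked and where arrays 1 and 2 again stood out. All D arrays were below all C arrays, at a difference of -1.06 ± 0.30 (adjusted p = 0.0087), a call that did not hold without C arrays 1 and 2. It was lowest in A, with 88.6 to 548.2 and a median of 311.2 against 532.2 to 777.3 and 600.3 in the CLP, a difference of -1.25 ± 0.25 (adjusted p = 0.000139), and B rose against A by 1.25 ± 0.25 (adjusted p = 0.000155). The highest mean was in B for Mrps18b and Mrps18c and in C for Mrps18a.

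**Figure D4:**
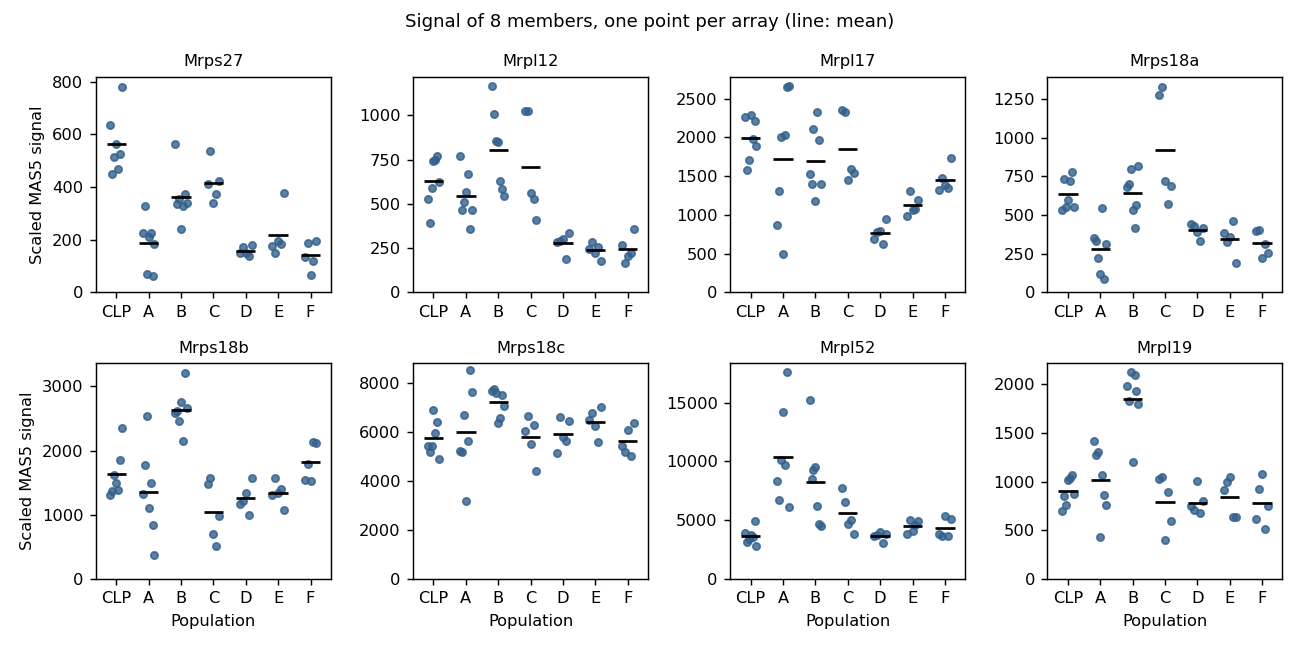
Scaled MAS5 signal of 8 members on a linear axis from 0, 1 point per array, with lines at the means of 7 arrays (CLP, A, B) or 5 arrays (C, D, E, F). Mrps27 and Mrpl12 are low from D on, and Mrpl17 has its lowest mean in D. Mrpl19 and Mrps18b are high in B, Mrpl52 is high in A and B, and Mrps18c is much the same throughout.

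In the large subunit, Mrpl10, Mrpl11 and Mrpl12 form the stalk and its base, where translation factors dock. Mrpl12, the stalk protein itself, which in human cells also binds the mitochondrial RNA polymerase, was 268.6, 164.6, 204.7, 224.4 and 356.7 in F. In the CLP it was 392.0 at the lowest, 625.3 at the median and 771.3 at the highest. The groups did not overlap, and the difference was -1.27 ± 0.24 (adjusted p = 3.26e-05). In D it was 283.3, 290.7, 304.6, 191.3 and 333.1, and in C 1026.8, 1023.5, 563.8, 529.0 and 408.8, all above D, with a difference of -1.18 ± 0.26 (adjusted p = 0.000811). Without C arrays 1 and 2 this was not called, and the fall against the CLP was called in all 56 settings. Mrpl11 averaged 3395 ± 253 in F (n = 5) and 4844 ± 425 in the CLP (n = 7), without overlap, and fell by 0.51 on the log2 scale (adjusted p = 0.0281). It was highest in B, at 5977.3 to 7306.9, above all A arrays at 1361.7 to 5636.2 (0.78 ± 0.17, adjusted p = 0.000549). Mrpl10, which anchors the stalk, dipped earlier. The CLP averaged 651 ± 87.8, A 324 ± 201 and B 408 ± 104 (SD, n = 7 each), C 744 ± 174, D 437 ± 36.9, E 388 ± 71.4 and F 376 ± 83.3 (n = 5 each). Its falls in A (-1.13 ± 0.24, adjusted p = 0.000277), in B against the CLP (-0.67 ± 0.24, adjusted p = 0.0333) and its rise in C against B (0.83 ± 0.26, adjusted p = 0.0186) were called, and the calls in B and C each ended in 6 of 56 settings.

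Around the exit tunnel for the new chain lie Mrpl17, which has a bacterial relative, and Mrpl39 and Mrpl45, which have none. Mrpl17 had its lowest mean in D, at 693.5, 782.3, 787.8, 619.5 and 946.5, against 2357.9, 2326.1, 1449.6, 1593.4 and 1544.8 in C. A array 4 read lower still, at 501.4. The D and C arrays were apart, with a difference of -1.22 ± 0.27 (adjusted p = 0.000972). The call held without C arrays 1 and 2 and did not hold with the mean of its probe sets. It averaged 1125 ± 126 in E and 1455 ± 169 in F (SD, n = 5 each), and every E array was above every D array, at a difference of 0.54 that did not pass the test (adjusted p = 0.304). Mrpl39 was 7136.0 to 50065.5 in A with a median of 11323.3, against 6496.2 to 8946.1 in the CLP, and the difference of 0.94 ± 0.27 (adjusted p = 0.00563) rested on A arrays 4, 6 and 7, at 27468.3, 50065.5 and 21268.0. Without those arrays it was not called, and another probe set of the gene was called in the opposite direction. Mrpl45, which holds the ribosome to the inner membrane in human mitochondria, had low signals, at 48.3 to 430.6 over all arrays. In B it read 144.7 to 430.6, against 48.3 to 347.0 in A, at a difference of 0.74 ± 0.25 (adjusted p = 0.0196), which ended in 6 of 55 settings.

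Mrpl40 lies in the central protuberance of the large subunit. In the CLP it read 996.6 to 1534.3 with a median of 1351.5, in A 113.4 to 1629.7 with a median of 842.3, and in B 978.9 to 2123.4 with a median of 1582.6. It fell in A against the CLP (-1.03 ± 0.30, adjusted p = 0.00537) and rose in B against A (1.29 ± 0.30, adjusted p = 0.000714), the furthest rise of a member at that step. Neither was called without A arrays 4, 6 and 7, on which it was 113.4, 298.3 and 515.4.

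Other large subunit proteins with bacterial relatives took several courses. Mrpl36, a small zinc-binding protein, was 269.7, 265.9, 318.1, 285.5 and 185.1 in F, against 521.6 to 821.6 in the CLP, with no overlap and a difference of -1.21 ± 0.23 (adjusted p = 4.57e-05). Its means were 690 ± 173 in C, 411 ± 57.9 in D and 310 ± 41.3 in E (SD, n = 5 each), and the fall in D against C (adjusted p = 0.0458) ended in 18 of 56 settings. Mrpl14, at the face of the large subunit that meets the small one, read 16.0, 26.3, 110.1, 106.6 and 106.5 in F, against 124.6 to 198.9 in the CLP, with a difference of -1.06 ± 0.32 (adjusted p = 0.00719). Its values lie close to the constant of 32 added before taking logs, which shrinks such differences.

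Mrpl19, another interface protein, peaked in B. It read 1197.5 to 2129.2 with a median of 1933.5 there, against 694.9 to 1064.8 in the CLP, with no overlap and a difference of 1.01 ± 0.22 (adjusted p = 0.000487). In C it was 1022.1, 1050.4, 403.2, 888.9 and 599.6, below all B arrays, at a difference of -1.25 ± 0.24 (adjusted p = 0.000136). With the mean over its probe sets neither call held. Mrpl33 was highest in A, at 2726.1 to 7163.4, above all CLP arrays at 1285.7 to 2650.1, with a difference of 1.27 ± 0.23 (adjusted p = 2.51e-05) that was called in all 56 settings. It was the 1 member that fell in B against A (-0.63 ± 0.23, adjusted p = 0.0305), a call that ended in 11 of 56 settings. In C it was 1149.8 to 1482.2, below all B arrays at 1567.4 to 5114.1 (-1.04 ± 0.25, adjusted p = 0.00171), a call that ended with the mean of its probe sets.

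Mrpl9 averaged 2742 ± 413 in C (n = 5) and 1523 ± 404 in B (n = 7), with all C arrays at 2242.0 to 3185.5 above all B arrays at 788.8 to 1908.1, a difference of 0.87 ± 0.20 (adjusted p = 0.00138). In D it was 1239.5 to 2042.9, below all C arrays (-0.71 ± 0.22, adjusted p = 0.0171), and in F 830.9 to 1249.7, below the 1639.7 to 2999.7 of the CLP (-0.95 ± 0.20, adjusted p = 0.000209). Another probe set of Mrpl9 was called the opposite way in A against the CLP, C against B and D against C. The mean over its probe sets turned the sign of its difference from B to C and from C to D, and the fall in F was then not called.

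Large subunit proteins found only in mitochondria included the least typical members. Mrpl52 was 6092.8 to 17587.8 in A, above all CLP arrays at 2818.6 to 4950.7, at a difference of 1.43 ± 0.21 (adjusted p = 6.39e-07), the furthest rise of a member in A. It read 4530.2 to 15231.1 in B, overlapping the CLP at a difference of 1.08 ± 0.21 (adjusted p = 9.85e-05), and averaged 3634 ± 362 in D (n = 5). Both calls stood in all 56 settings, although another of its probe sets was called lower in A. Mrpl49 was high in C and D. It read 1623.2 to 2221.0 in C and 1672.2 to 2062.2 in D, and its lowest values were in A, at 377.4 to 877.1. It fell in A against the CLP (-0.81 ± 0.19, adjusted p = 0.00103), rose in B against A (0.85 ± 0.19, adjusted p = 0.000721) and rose in C against B (0.83 ± 0.21, adjusted p = 0.00343), the last call ending with median centring and with the mean of its probe sets. In F it was 734.9 to 1313.0, below the E arrays at 1355.4 to 1652.5, but the difference of -0.69 did not pass (adjusted p = 0.31).

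The ranges of Mrpl51 and Mrpl54 were among the 4 smallest. Mrpl51 had means of 5563 ± 987 in C (n = 5) to 8805 ± 4782 in A (n = 7), a range of 0.52 on the log2 scale. The F-test did not call it (adjusted p = 0.0558). Mrpl54 had means of 130 ± 58.2 in B (n = 7) to 192 ± 20.8 in E (n = 5), and was not called either (adjusted p = 0.34).

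Genes that work with the members shared only part of this course. Of all genes, 11.5% rose and 25.5% fell in A against the CLP, and 14.2% rose and 8.8% fell in C against B. In D against C 7.46% rose and 13.6% fell, and in F against the CLP 15.2% rose and 26.6% fell. Proteins of the cytosolic ribosome, which translates nuclear messages, moved earlier and the other way at the end: of 43 tested, 31 rose and 2 fell in A against the CLP (median 0.72), 32 fell and 2 rose in C against B (median -0.70), 2 fell in D against C, and in F against the CLP 13 rose and 4 fell (median 0.19). Rps29 and Rps28 rose in F, by 0.79 each, while Rpl14 fell by 1.40 and Rps27l by 1.33 on the log2 scale. Subunits of oxidative phosphorylation, the destination of the mitochondrial ribosome's products, were nearer the members at the end of the path. Of 73, 32 fell and 4 rose in F against the CLP (median -0.46), led by Atp5g2 of the ATP synthase (-1.68 ± 0.29) and Sdhc of complex II (-1.61 ± 0.38), and 15 fell and 2 rose in D against C. In A against the CLP 33 of them rose and 10 fell (median 0.31), where the members' median was -0.36.

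**Figure D5:**
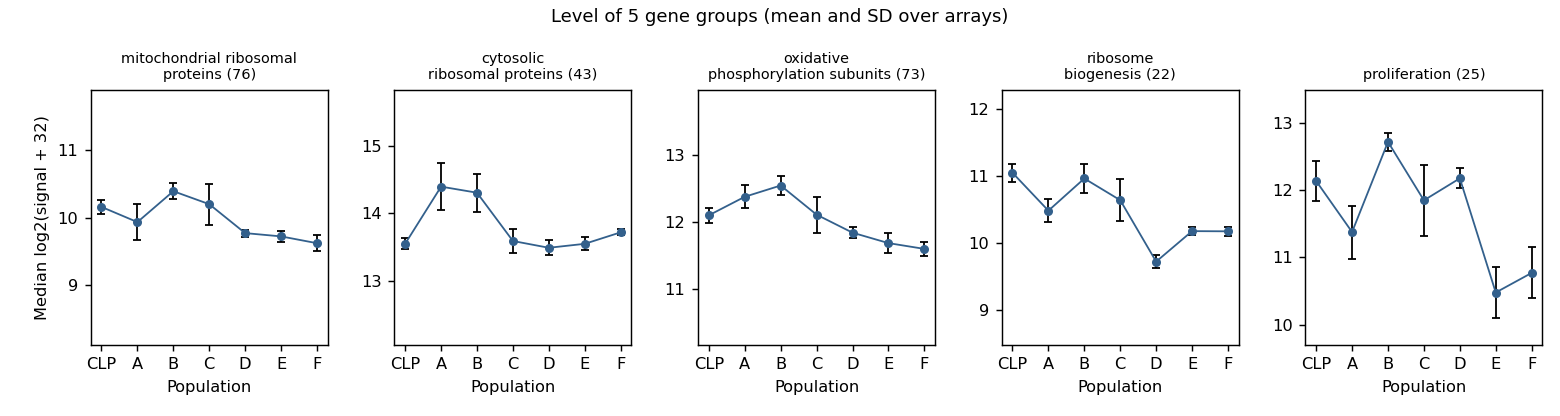
Points are the mean over arrays of the median log2(signal + 32) of each gene group and bars are SDs, over 7 (CLP, A, B) or 5 arrays (C, D, E, F). All panels span the same number of log2 units around different levels, and genes tested are in brackets. The members and the oxidative phosphorylation subunits are lowest in F, the cytosolic ribosomal proteins highest in A and B, ribosome biogenesis lowest in D and proliferation lowest in E.

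Other genes of mitochondrial translation are set beside all genes, of which 26.6% fell and 15.2% rose in F against the CLP, and the shares that fell among translation factors and assembly genes were near that. Of 15 translation factors (26.7% down, 13.3% up), 4 fell and 2 rose in F against the CLP: the elongation factors Gfm1 (-1.06 ± 0.27, adjusted p = 0.00163) and Tufm (-0.99 ± 0.36, adjusted p = 0.0219) fell, while Gfm2, which recycles ribosomes, rose (1.21 ± 0.34, adjusted p = 0.00335), as did the initiation factor Mtif2 (0.82 ± 0.31, adjusted p = 0.031). Among 27 genes of mitochondrial ribosome assembly (25.9% down, 7.41% up), 7 fell, including the GTPases Noa1 (-1.25 ± 0.25) and Mtg1 (-1.24 ± 0.43), and 2 rose, the pseudouridine synthase Trub2 (0.99 ± 0.20) and Mterf3 (0.65 ± 0.20). Of 19 mitochondrial tRNA synthetases and related enzymes (10.5% down, 21.1% up), 4 rose, among them Mars2 (1.14 ± 0.25) and Qrsl1 (1.13 ± 0.23), and 2 fell, Cars2 (-0.78 ± 0.31) and Rars2 (-0.58 ± 0.24). The medians of these lists in F against the CLP were -0.30, -0.31 and -0.05, against -0.51 for the members and -0.15 for all genes. Of 4 further subunits with other symbols (Chchd1, Dap3, Gadd45gip1 and Ptcd3), 0 were called in F against the CLP, with a median of -0.43. In D against C, where 13.6% of all genes fell and 7.46% rose, 1 of the 4 was called, the fall of Gadd45gip1 (-1.22 ± 0.41, adjusted p = 0.0286).

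Regulators of mitochondrial genes were measured on the same arrays. For the counts in D against C below, 13.6% of all genes fell and 7.46% rose. At the step to D, 3 of 12 fell and 2 rose: Myc fell by 2.73 on the log2 scale (SE 0.24, adjusted p = 3.95e-11) and the coactivator Ppargc1a changed by -1.56 (SE 0.39, adjusted p = 0.00291), while the nuclear receptor Esrra (0.88 ± 0.28, adjusted p = 0.0185) and Yy1 (0.63 ± 0.16, adjusted p = 0.00296) rose. Myc rose again in E against D (1.80 ± 0.24, adjusted p = 3.88e-07), a step at which 0 members were called. Ppargc1b (-1.06 ± 0.37, adjusted p = 0.0347) was the other regulator that fell, named after its value was seen, and Nrf1 had means of 10.23 in D and 10.14 in C on the log2 scale and was not called (adjusted p = 0.911). In ribosome biogenesis, the nucleolar production of cytosolic ribosomes, 9 of 22 genes fell and 0 rose in D against C, led by the nucleolar proteins Nolc1 (-2.04 ± 0.24) and Fbl (-1.75 ± 0.24).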

How the data were processed

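RNA of 41 arrays was labelled with biotin after amplification (NuGEN Ovation Pico, per the labels' protocols). The deposited values are MAS5 signal intensities, 1 table per array, scaled by the authors to a trimmed mean of 500.0, as the values show (2% trimmed at each end). MAS5 version and probe set build are not given in the sources used here. Precision is limited by the number of arrays.

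Of 45101 probe sets, 34945 had 1 gene symbol, 932 had several, 9211 were not listed and 64 were controls. Each gene was read from its probe set with the highest mean. All 76 members matched by Entrez identifier in RefSeq, with unchanged symbols. The log2 values are log2(deposited intensity + 32), and the constant understates differences of dim genes. Genes that reached the array's median on 5 or more arrays were tested. One limma 3.58.1 fit (R 4.3.3, statmod 1.5.0, trend and robust) of 7 population means gave 8 comparisons and the F-test, with Benjamini-Hochberg adjustment over 11947 genes and calls at an adjusted p under 0.05. The procedure was tested on simulated data. Tables and plots used Python 3.11.15, pandas 2.3.3, numpy 2.4.6 and matplotlib 3.10.9.

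Members and lists were chosen with earlier results of these data known. Named members are, in each comparison, the 3 called members with the largest rises and the 3 with the largest falls, the 3 highest and 3 lowest by mean signal, the 3 with the largest and the 3 with the smallest range, the Mrps18 paralogs and the stalk. Other lists name up to 2 genes a direction. Names outside this rule are said to be so or complete a count. The alternatives were other constants, filters, scalings and probe set rules, array weights, other spread estimates, a replicate block, fits of 2 populations, leaving out each array in turn, and, added after seeing the data, fits without A arrays 4, 6 and 7, without B arrays 1 and 4, and without C arrays 1 and 2.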

Additional observations from a re-analysis of the deposited data

Results flagged for a closer look

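Among the 24 named members, and for the members' level, 175 groups (the arrays of 1 population) were examined for an array far from the rest by Dixon's criterion. Chance flags about 1 in 20 groups, and 6 met it. Mrps27 was 562.9 on B array 1, with the other B arrays at 240.3 to 373.9, and 378.2 on E array 5, with the others at 149.5 to 195.0. Mrpl49 was 2241.2 on B array 1, with the others at 698.6 to 1236.2. Mrpl19 was 1197.5 on B array 4, below the others at 1797.4 to 2129.2. Mrpl40 was 1057.0 on F array 2, with the others at 616.0 to 743.0. Mrpl54 was 106.7 on CLP array 1, below the others at 162.2 to 182.6. The cause of these values was not tested.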

How the results depend on the processing

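The members' median difference stayed below 0 in F against the CLP and in D against C under every alternative run. Percentages in brackets are the shares of all genes under the same setting. Without C arrays 1 and 2, 6 members fell in D against C (8.26%) and 1 in B against the CLP (18.4%). In C against B 13 then fell (8.62%), with a median of -0.30. Without A arrays 4, 6 and 7, 40 fell in D against C (21.8%), 18 in C against B (13.8%) and 8 in A against the CLP (17.4%). In B against the CLP 21 then rose (13.5%) and 5 fell (27.9%), and in B against A 0 fell (17.7%). In E against D 2 rose (7.46%) and 1 fell (7.81%). Without B arrays 1 and 4, 2 fell in B against A (14.3%) and 1 in B against the CLP (14.3%). These 3 settings were chosen after seeing the data. Median centring gave 9 rises (17.3%) and 8 falls (14.9%) in A against the CLP, with a median of -0.13. It gave 43 rises (24.6%) and 0 falls (9.52%) in B against A. In B against the CLP there were 35 rises (21.9%) and 0 falls (7.29%), with a median of 0.59. In C against B there were 0 rises (4.55%) and 29 falls (19.3%), with a median of -0.47. Quantile normalization gave 13 falls in A against the CLP (21.1%), 2 in B against A (13.2%) and 0 in B against the CLP (11.6%). With the mean of probe sets, 6 rose in B against the CLP (5.69%), with a median of 0.024. In C against B 3 then fell (5.38%), with a median of 0.0047, a reversed sign. The median in F against the CLP was then -0.38. With no filter 1 fell in B against the CLP (12.3%), and with each probe set tested also 1 (17.9% of all probe sets tested). With each probe set tested, 66 other probe sets of 34 members were set beside the chosen ones. Both were called the same way in 5 cases and opposite ways in 3 in A against the CLP. The counts were 8 and 1 in B against A, 3 and 0 in B against the CLP and 2 and 2 in C against B. They were 4 and 1 in D against C and 6 and 1 in F against the CLP. Array weights gave 12 falls in A against the CLP (21%), 0 in B against A (14.8%) and 23 in C against B (15.8%). They gave 26 rises (15%) and 6 falls (27.8%) in B against the CLP, and 1 rise (18.5%) and 43 falls (27.6%) in D against C. There were 4 rises and 3 falls in E against D (13.2% each way) and 2 falls in F against E (2.17%). Fits of only the 2 populations gave 5 falls in A against the CLP (12.9%), and 5 rises (4.95%) and 0 falls (6.29%) in B against A. They gave 19 rises in B against the CLP (11.1%), and 1 rise (17.2%) and 40 falls (26.5%) in D against C. There were 4 rises (12.8%) and 4 falls (12.3%) in E against D and 1 fall in F against E (2.4%). The cause of these shifts was not tested. Same-numbered arrays did not vary together in all pairs of any comparison. Correlations above 0.1 were found in 3 of 7 pairs in B against A, in 1 of 5 in C against B, in E against D and in F against E, and in 0 in the other 4 comparisons, though in E against D and in F against E 4 of 5 arrays correlated best with their own number, a hint from the data. With the replicate number as a block, 24 members fell in D against C (13.8%), 32 in F against the CLP (26.5%) and 1 in B against the CLP (19.3%). Leaving out 1 array at a time gave 0 to 2 falls in B against A, 7 to 17 rises and 0 to 3 falls in B against the CLP, and 2 to 5 rises and 5 to 12 falls in C against B, with a median of -0.15 to 0.013.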

Other observations

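The population means of 72 members correlated above 0 with the members' median profile over the 7 populations, and 36 of 76 did so at 0.8 or more, as did 9.91% of tested genes that are not members. The members at the other end were Mrpl54 (-0.52), Mrps23 (-0.42), Mrpl38 (-0.34) and Mrpl49 (-0.02). The genes outside the members with the most similar profiles were Ddx1 (0.993), an RNA helicase, Pmpca (0.989), a subunit of the peptidase that trims imported mitochondrial proteins, Dhx33 (0.988), Bcl2l12 (0.988) and Fam168b (0.987). The profile was made from these same members, so their higher share at 0.8 or more is in part built in. All of these correlations are descriptions over 7 means that share arrays.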
